A study of Mus musculus with 4 samples.

Results

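The genes examined here were Csf1, Il34 and Tnfrsf11b, which encode secreted regulators of osteoclasts made by stromal cells. They were taken from a given list of 3 genes, matched by Ensembl identifier to mouse symbols, and all 3 were found among the 12208 genes of the table. RNA sequencing was done on 3T3 cells, labelled as a mouse pre-osteoblast line; fibroblast lines also carry the name 3T3, and the labels do not say more about this one. Control cells and cells given recombinant LTα1β2 were each taken at 24 h and at 48 h. Each of these 4 groups is 1 library, and a difference within 1 time has no replicates behind it. The labels name neither the dose nor what the control cells received.

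Osteoclasts are bone-resorbing cells that form from precursors of the monocyte lineage. Stromal cells and osteoblasts supply the 2 kinds of signal that precursors need. The first is a ligand of the receptor CSF1R, which keeps the precursors alive and dividing: CSF1 (also called M-CSF) and IL-34 both bind this receptor and are unrelated to each other in sequence. The second is RANKL, encoded by Tnfsf11, which acts on the receptor RANK and drives differentiation. Osteoprotegerin, encoded by Tnfrsf11b, is a secreted decoy receptor that captures RANKL and so restrains osteoclast formation. LTα1β2 belongs to the TNF family of ligands. It engages the lymphotoxin β receptor (Ltbr), which activates both arms of NF-κB signalling.

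In GENCODE M21, on GRCm38 (the authors' own build is not given in the sources used here), the 3 genes lie on different chromosomes, each on the minus strand. Csf1 (ENSMUSG00000014599.10) spans chr3:107741048-107760469. Il34 (ENSMUSG00000031750.15) spans chr8:110741829-110805924, and Tnfrsf11b (ENSMUSG00000063727.3) spans chr15:54250619-54278484. Csf1 has 6 protein-coding transcripts of 773 to 4176 bases, Il34 has 2 of 1709 and 1796 bases, and Tnfrsf11b has 1 of 2818 bases. Il34 overlaps 2 antisense gene models, Gm15894 and Gm15895, and no source used here says if reads were counted by strand, so reads from them could be included in its values. Csf1 and Tnfrsf11b overlap 0 other annotated genes.

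Of the 3 genes, a promoter window was found for Csf1. It is shown because NF-κB carries signals of the lymphotoxin receptor and the window holds a sequence of the κB type. The window covers 250 bases before and 50 bases after the most upstream annotated start of the gene (RefSeq, GRCm38.p6, chr3:107760420-107760719, minus strand), and capitals mark the κB match.
Csf1 promoter: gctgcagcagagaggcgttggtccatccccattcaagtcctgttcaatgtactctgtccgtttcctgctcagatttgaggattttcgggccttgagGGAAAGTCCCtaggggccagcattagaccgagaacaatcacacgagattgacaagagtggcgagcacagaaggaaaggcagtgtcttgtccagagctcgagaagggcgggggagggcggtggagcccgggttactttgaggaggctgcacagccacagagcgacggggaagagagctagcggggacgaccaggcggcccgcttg
The degenerate κB consensus was searched on both strands. It matched 1 stretch, from 154 to 145 bases before the start, which reads GGAAAGTCCC on the strand of the gene; the match to the consensus is on the opposite strand. Of 32851 promoter windows of the same length, 4.51% held a match to the consensus, and 51 (0.155%) held exactly these 10 letters or their reverse complement. The letters TATAAA were not found in the Csf1 window and were present in 13.6% of all windows. A match describes the sequence and does not show that a factor binds there.

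The authors gave levels as CPM, counts per 1000000 reads of the listed genes. The libraries held between 11355974 and 15995777 such reads, as recovered from the steps between values. Intervals below are exact 95% counting intervals and cover counting error only, not differences between cultures. In bulk RNA, fewer cells that express a gene and less of its RNA per cell cannot be told apart. The treated 48 h library stood apart from the others: its reads came from shorter transcripts, with a median length over reads of 2848 bases where the other libraries had 3329 to 3414 bases. Differences between treated and control cells at 48 h fell with transcript length. For Csf1, Il34 and Tnfrsf11b, the median of the 500 genes nearest in length is given beside the gene's own difference. Other genes named below, and the medians of gene lists, are given without this median. Their 48 h differences are not set against genes of like length unless a value with the length trend removed is given.

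The 3 genes covered very different ranges of abundance. Per kilobase of the longest coding transcript, Csf1 stood at 306 to 419 CPM, Tnfrsf11b at 36.0 to 45.2 CPM and Il34 at 2.75 to 5.93 CPM. The order Csf1, Tnfrsf11b, Il34 was the same in every library, and shorter Csf1 transcripts would only raise its level. Csf1 was among the most abundant transcripts of these cells: from 1.04% (treated, 24 h) to 1.70% (treated, 48 h) of 12157 genes stood above it on the per-kilobase scale. For Tnfrsf11b that share was 12.7% to 17.4%. Il34 was a low gene, with 64.3% to 81.5% of genes above it. Of the summed per-kilobase level of the CSF1R ligands, Il34 made up 0.792% in control and 0.983% in treated cells at 24 h, and 0.978% and 1.89% at 48 h.

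**Figure D1:**
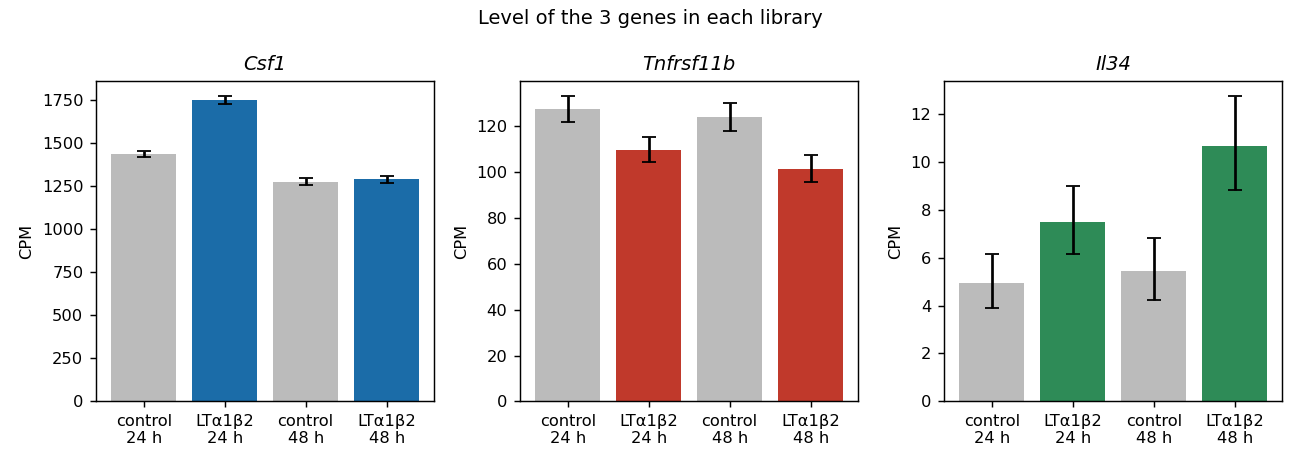
Level of Csf1, Tnfrsf11b and Il34 in each of the 4 libraries in CPM (vertical axes from 0, a different scale for each gene); grey bars are control, coloured bars LTα1β2, and error bars are exact 95% Poisson intervals of the reads. Il34 is higher and Tnfrsf11b lower in the treated library at both times, and Csf1 is highest in the treated 24 h library, at 1751 CPM.

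Il34 was higher in treated cells at both times, and it was the 1 gene of the 3 that passed the test. The 24 h libraries held it at 4.94 CPM (79 reads) without and 7.47 CPM (112 reads) with LTα1β2. The 48 h libraries held it at 5.42 CPM (71 reads) without and 10.7 CPM (121 reads) with LTα1β2. Both treated libraries lay above both control libraries. The treated level was 1.51 times control (1.12 to 2.04) at the earlier time and 1.97 times control (1.45 to 2.67) at the later. The wide intervals come from the small number of reads.

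In order of level, the control libraries did not differ beyond counting error (48 h over 24 h 1.10-fold, 0.785 to 1.53). The treated 24 h library was 1.38-fold above the 48 h control (1.02 to 1.88). The treated 48 h library was 1.43-fold above the treated 24 h library (1.09 to 1.86). Of the 12160 genes tested, 2.16% had a larger difference than Il34 at 24 h and 2.99% at 48 h. The Il34 transcript is the shortest of the 3, and the 500 genes nearest to it in length had a median log2 difference of 0.06 at 48 h, against 0.86 for Il34 itself.

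The test was a limma fit across all genes with additive terms for treatment and time, so that both times act as repeats of the treatment. In it Il34 rose by 0.69 ± 0.20 (SE) on the log2(CPM + 1) scale, with an adjusted p of 0.0211. In the same fit 2.92% of all genes were called higher and 2.27% lower. The fit replaced each gene's own spread by that of genes of like level (infinite prior degrees of freedom), and most fits with finite ones did not call Il34. With 10 prior degrees of freedom its adjusted p in limma was 0.207. Without a time term it was 0.411 at that fit's own 6.3 prior degrees of freedom and 0.0335 at infinite ones. With median-of-ratios rescaling it was 0.114 at 9.9 and 0.0053 at infinite ones. With the length trend of each library removed it was 0.0492 at 14.3 and 0.0080 at infinite ones. Fits on 3 libraries hold no time term, and with 1 treated library left the spread comes from the control libraries alone, which differ in time. Their limma adjusted p was 0.326 without the treated 48 h library, 0.9999 without either control library and 0.000354 without the treated 24 h library. The difference was above 0 in every one of these fits.

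**Figure D2:**
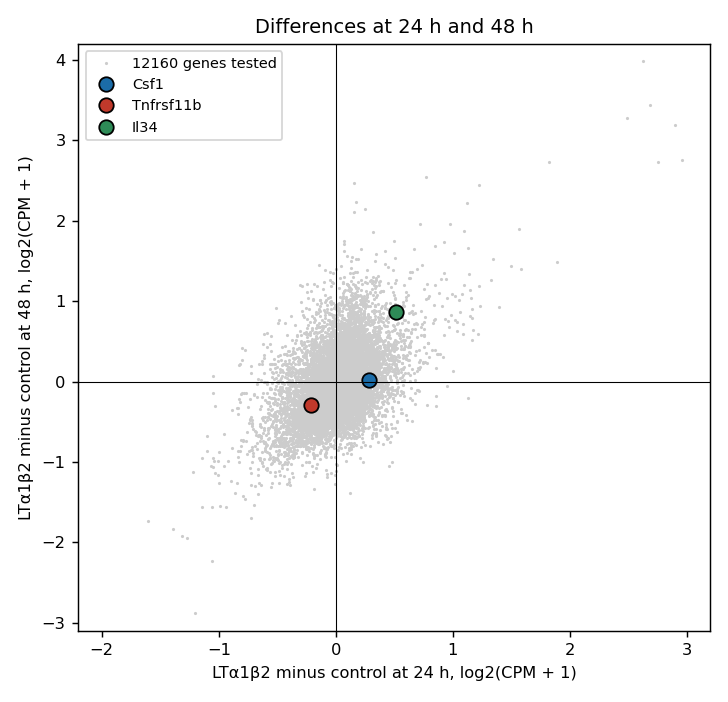
Difference between LTα1β2 and control at 24 h (horizontal axis) and at 48 h (vertical axis), both in log2(CPM + 1), for the 12160 genes tested (grey) and the 3 genes (coloured). Il34 lies at 0.51 and 0.86, Csf1 at 0.28 and 0.01, and Tnfrsf11b at -0.21 and -0.29.

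Csf1, the main ligand of CSF1R in these cells by transcript level, was higher in treated cells at 24 h and close to control at 48 h. The 24 h libraries held it at 1438 CPM without and 1751 CPM with LTα1β2. The 48 h libraries held it at 1276 CPM without and 1289 CPM with LTα1β2. The treated 24 h library was the highest of the 4, and the treated 48 h library lay below the 24 h control, so the treatments overlapped. The treated level was 1.22 times control (1.196 to 1.239) at the earlier time and 1.01 times control (0.988 to 1.033) at the later. With 14639 to 26236 reads per library the counting error was small, and the pair at 48 h was the 1 neighbouring pair in the order of levels whose interval included 1.

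With time, Csf1 was lower at 48 h than at 24 h in both treatments, at 0.888 of the earlier level in control (0.870 to 0.906) and 0.736 in treated cells (0.722 to 0.751). In the additive limma fit its mean log2 difference with treatment was 0.15 ± 0.20 (SE), with an adjusted p of 0.798. The Csf1 transcript is long, and the 500 genes nearest in length had a median log2 difference of -0.18 at 48 h, against 0.01 for Csf1. With the length trend removed, the 48 h log2 difference of Csf1 was 0.18, the mean was 0.22 and the limma adjusted p was 0.28. Without the treated 48 h library the log2 difference was 0.37 (limma adjusted p = 0.0157), in a fit that called 402 genes higher and 370 lower. It sets the treated 24 h library against both controls with no time term, so the lower level of the 48 h control enters the difference, which was 0.28 against the 24 h control. Without the treated 24 h library the difference was -0.072 (limma adjusted p = 0.623). Whether the differences at 24 h and 48 h themselves differ could not be tested with 1 library per group.

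**Figure D3:**
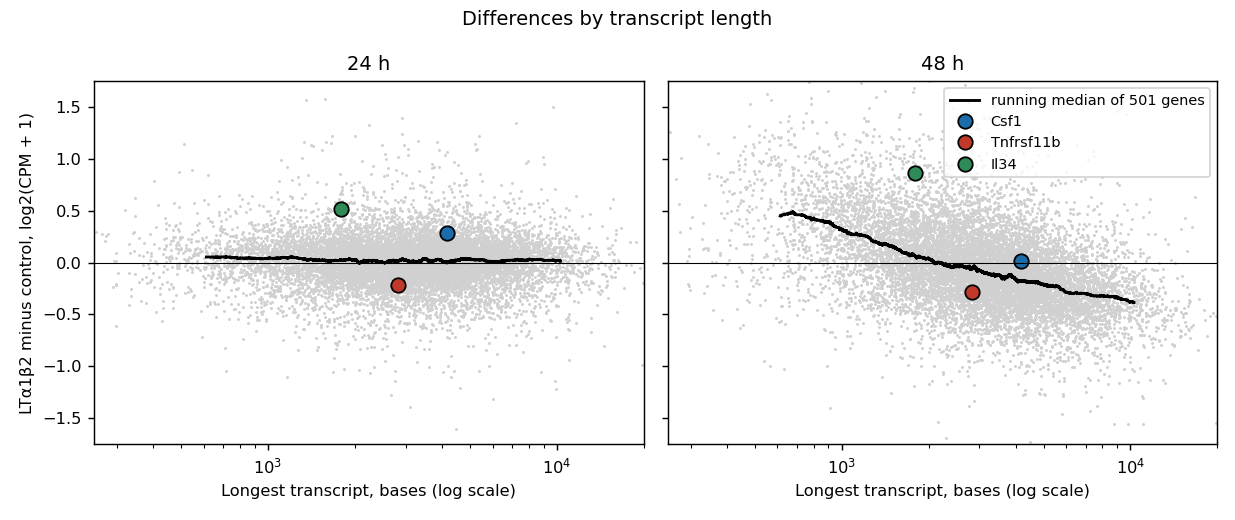
Difference between LTα1β2 and control in log2(CPM + 1) against the longest transcript of each gene (coding where the gene has any; log scale), at 24 h (left) and 48 h (right). The black line is the running median of 501 genes, and points beyond the vertical limits are not drawn. The line is flat at 24 h and falls with length at 48 h; Il34 and Csf1 lie above it and Tnfrsf11b below it at both times.

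Tnfrsf11b, which encodes the decoy receptor osteoprotegerin, was slightly lower in treated cells at both times. Control libraries held 127 CPM at 24 h and 124 CPM at 48 h. Treated libraries held 109.8 CPM at 24 h and 101 CPM at 48 h. Both treated libraries lay below both control libraries. The treated level was 0.862 times control (0.807 to 0.920) at the earlier time and 0.818 times control (0.758 to 0.882) at the later. The control libraries did not differ beyond counting error (24 h over 48 h 1.03-fold, 0.962 to 1.10), and the treated 24 h library was 1.08-fold above the treated 48 h library (1.004 to 1.168).

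A difference of this size did not pass the test. The additive limma fit gave -0.25 ± 0.17 (SE), with an adjusted p of 0.511. Of all genes tested, 86.8% had a higher difference than Tnfrsf11b at 24 h and 72.9% at 48 h. The 500 genes nearest in length had a median log2 difference of 0.01 at 24 h and -0.06 at 48 h, against -0.21 and -0.29 for Tnfrsf11b. Its difference with the length trend removed was -0.22 and -0.23. Without the treated 24 h library the log2 difference was -0.31 (limma adjusted p = 0.00305). That fit has no time term, sets 1 treated library against controls that alone give the spread, and called 1886 genes higher and 3063 lower.

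The balance between the 3 transcripts can be read within each library, where depth cancels but the trend with transcript length at 48 h does not. Per kilobase, there were 7.61 Csf1 transcripts for each Tnfrsf11b transcript in control and 10.8 in treated cells at 24 h, and 6.94 and 8.58 at 48 h. For each Il34 transcript there were 16.4 Tnfrsf11b transcripts in control and 9.37 in treated cells at 24 h, and 14.6 and 6.07 at 48 h. Csf1 exceeded Il34 by a factor of 125 in control and 101 in treated cells at the earlier time, and of 101 and 52.0 at the later. These ratios were formed from single libraries, carry no test and are not corrected for the length trend. With that trend removed, the 48 h log2 difference was 0.18 for Csf1, 0.79 for Il34 and -0.23 for Tnfrsf11b. Without the removal it was 0.01, 0.86 and -0.29. Tnfsf11, the gene of RANKL, was not among the genes tested and is not analysed here, so the ratio of RANKL to osteoprotegerin could not be given.

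The genes nearest to each of the 3 in pattern were sought among 9378 genes with a mean of at least 10 CPM. Likeness was the Euclidean distance between log2(CPM + 1) values over the 4 libraries, each gene centred on its own mean. Nearest to Il34 were Idnk (distance 0.06), Bola2 (0.08), Crbn (0.10) and Car13 (0.11). Idnk stood at 9.25 and 10.2 CPM in the controls of 24 h and 48 h, and at 13.5 and 18.2 CPM in the treated libraries. Nearest to Csf1 were Mapk11, which encodes a p38 kinase (0.02), the lamin gene Lmnb2 (0.03), the DNA damage kinase gene Atm (0.04) and Alg13 (0.04). Nearest to Tnfrsf11b was Actb, the β-actin gene (0.0049). Actb stood at 3435 and 3332 CPM in the controls of 24 h and 48 h, and at 2965 and 2740 CPM in the treated libraries. Next came St7, Wdr1, which encodes an actin-disassembly factor, and Agtpbp1, all within 0.03. With 4 libraries the distances are a description only.

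Other secreted factors and decoys of stromal cells that act on osteoclasts or their precursors were next considered. Of 26 such genes 15 were tested, and 1 rose and 0 fell in the additive limma fit. Over all genes tested 2.92% were called higher and 2.27% lower in that fit. The median log2 difference of the 15 was 0.21 at 24 h and 0.10 at 48 h, against 0.02 and -0.09 over all genes tested. Lif, which encodes leukaemia inhibitory factor, a cytokine of the IL-6 family, was the gene that rose. The 24 h libraries held Lif at 12.8 CPM without and 19.2 CPM with LTα1β2, a ratio of 1.49 (1.245 to 1.797). The 48 h libraries held it at 9.47 CPM and 14.9 CPM, a ratio of 1.57 (1.239 to 1.998). Its limma log2 difference was 0.57 ± 0.19 (SE), with an adjusted p of 0.0476. Both treated libraries were above both controls. Spp1, the gene of the matrix protein osteopontin to which osteoclasts attach, and Sema3a, which encodes a semaphorin that restrains osteoclast differentiation, were the most abundant of the list. Spp1 did not pass (limma adjusted p = 0.337), with 1234 CPM (24 h) and 1525 CPM (48 h) in the controls and 1430 CPM and 2210 CPM in the treated libraries. Sema3a did not pass either (limma adjusted p = 0.75), with 1078 CPM and 1080 CPM in the controls and 1023 CPM and 894 CPM in the treated libraries. Lif lost its call with median-of-ratios rescaling (limma adjusted p = 0.117), where 0 genes of the list were called higher, against 3 at infinite prior degrees of freedom. The count was 4 with the length trend removed (5 at infinite prior degrees of freedom), and 0 with 10 prior degrees of freedom or without a time term. Over the 12160 genes tested, 499 were called higher with the length trend removed (1004 at infinite prior degrees of freedom). With median-of-ratios rescaling 96 were called higher (809 at infinite ones). With 10 prior degrees of freedom 39 were called higher, and without a time term 20. Fits on 3 libraries leave 1 library in a group, so their counts for the list are not given.

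Receptors and enzymes through which stromal cells receive or make signals that set RANKL and osteoprotegerin formed the next list. Of 22 genes 21 were tested, and 1 rose and 1 fell, where 2.92% of all genes were called higher and 2.27% lower. The median log2 difference of the 21 was -0.04 at 24 h and -0.18 at 48 h, against 0.02 and -0.09 over all genes tested. Osmr, which encodes a receptor chain for oncostatin M, was the gene that rose. The 24 h libraries held it at 174 CPM without and 301 CPM with LTα1β2, a ratio of 1.73 (1.65 to 1.81). The 48 h libraries held it at 122 CPM and 170 CPM, a ratio of 1.40 (1.31 to 1.49). Its limma log2 difference was 0.63 ± 0.17 (SE), with an adjusted p of 0.00775. The treated 48 h library lay slightly below the 24 h control, so the levels of the treatments overlapped across times. Lrp5, a Wnt co-receptor gene, was the gene that fell, by 0.55 ± 0.17 (SE) on the log2 scale, with a limma adjusted p of 0.0301. The 24 h libraries held it at 168 CPM without and 128 CPM with LTα1β2, a ratio of 0.764 (0.720 to 0.810). The 48 h libraries held it at 161 CPM and 98.1 CPM, a ratio of 0.610 (0.567 to 0.656). The other Wnt co-receptor gene, Lrp6, missed the threshold (limma adjusted p = 0.0657), with 386 CPM (24 h) and 354 CPM (48 h) in the controls and 309 CPM and 220 CPM in the treated libraries. Ctnnb1, which encodes β-catenin, the effector of Wnt signals, stood at 461 to 518 CPM in all libraries (limma adjusted p = 0.852). Both Wnt co-receptor transcripts are long, 5161 and 9368 bases. With the length trend removed, the 48 h log2 difference was -0.49 for Lrp5 and -0.33 for Lrp6, against -0.71 and -0.68 without the removal. The limma adjusted p with that trend removed was 0.0066 for Lrp5 and 0.034 for Lrp6. With median-of-ratios rescaling 1 gene of the list was called higher and 0 lower, with Osmr at an adjusted p of 0.0298 and Lrp5 at 0.0845 in limma; at infinite prior degrees of freedom this rescaling gave 2 higher and 4 lower. Removal of the length trend gave 4 and 3 (5 and 4 at infinite prior degrees of freedom), and with 10 prior degrees of freedom or without a time term 0 and 0. Over all genes tested, removal of the length trend gave 499 higher and 365 lower (1004 and 720 at infinite prior degrees of freedom). Median-of-ratios rescaling gave 96 and 84 (809 and 459 at infinite ones). With 10 prior degrees of freedom 39 and 25 of all genes were called, and without a time term 20 and 11. Counts from fits on 3 libraries are not given for this list, since they leave 1 library in a group.

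**Figure D4:**
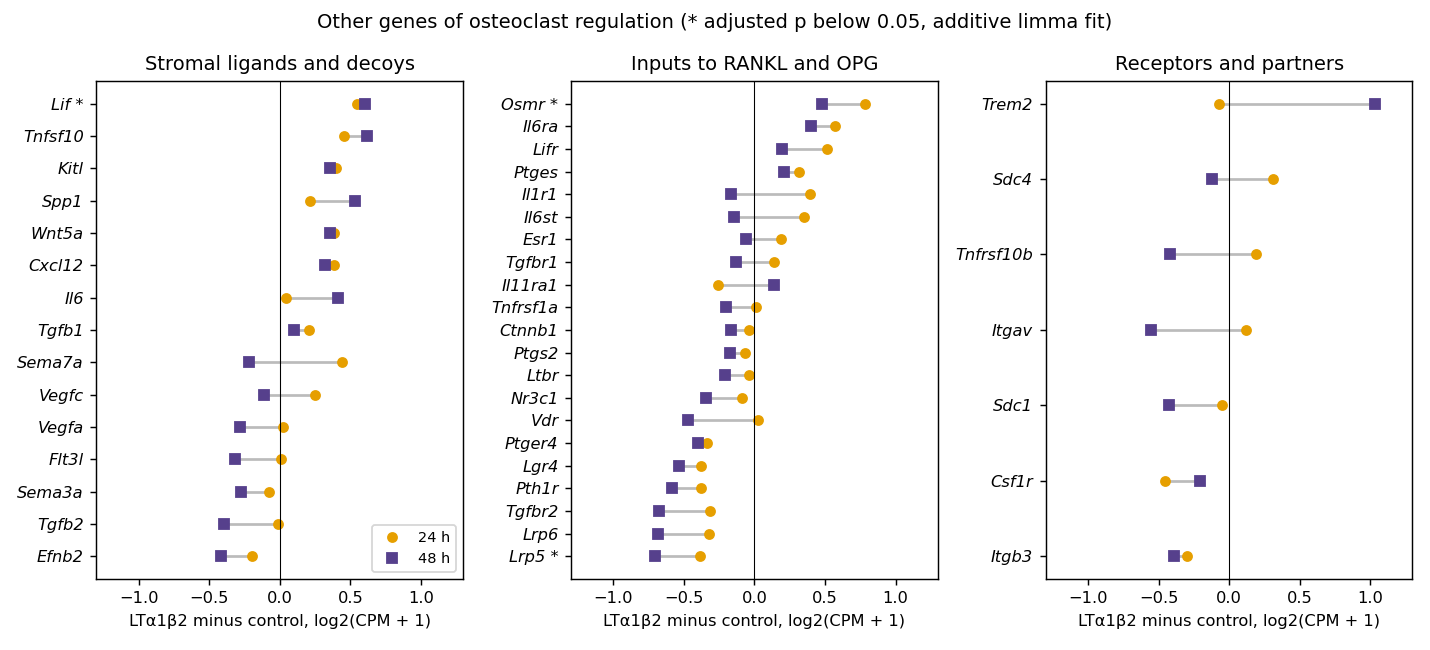
Difference between LTα1β2 and control in log2(CPM + 1) at 24 h (circles) and 48 h (squares) for the tested genes of the 3 lists. The lists are stromal ligands and decoys (15 genes), inputs to RANKL and osteoprotegerin (21) and receptors and partners of the 3 factors or of ligands of osteoprotegerin (7). An asterisk marks an adjusted p below 0.05 in the additive limma fit: Lif, Osmr and Lrp5.

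Receptors and binding partners of the 3 factors formed the last list, together with Tnfrsf11a and Tnfrsf10b, which encode receptors of ligands that osteoprotegerin binds. Of its 10 genes 7 were tested, and 0 passed the limma test. The lowest limma adjusted p was that of Trem2, at 0.236. The median log2 difference of the 7 was -0.05 at 24 h and -0.39 at 48 h, against 0.02 and -0.09 over all genes tested. These medians are not corrected for the trend with transcript length at 48 h. Itgav, an integrin gene, stood at 288 CPM (24 h) and 327 CPM (48 h) in the controls, and at 313 CPM and 222 CPM in the treated libraries. Sdc1, which encodes syndecan-1, a proteoglycan that can bind IL-34, stood at 159 CPM and 175 CPM in the controls, and at 153 CPM and 130 CPM in the treated libraries. Csf1r, named after its values were seen because it encodes the receptor of CSF1 and IL-34, was near the floor of the table, at 1.56 CPM and 1.07 CPM in the controls and 0.867 CPM and 0.793 CPM in the treated libraries. The levels of Csf1r rest on 9 to 25 reads. Ptprz1, another IL-34 receptor gene, and Tnfrsf11a, the gene of RANK, were not among the genes tested.

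Markers of other cells were examined beside these values. Of 20 osteoclast and macrophage markers 6 were tested (Ctsk, Lyz2, Nfatc1, Cd14, Cd68 and Csf1r), and 0 passed the limma test. The lowest limma adjusted p values were 0.117 (Cd14) and 0.252 (Nfatc1). With median-of-ratios rescaling at infinite prior degrees of freedom 1 was called higher, as were 809 of the 12160 genes tested. The summed level of the 6 ranged from 220 to 243 CPM in the controls and from 208 to 241 CPM in the treated libraries, most of it Ctsk and Lyz2. Acp5, Ptprc, Adgre1, Itgam and Spi1 were not among the genes tested. Of 8 lymphocyte markers and of 8 endothelial and epithelial markers 0 were tested. Of 16 osteoblast and mesenchymal markers 13 were tested, with Col1a1, Col1a2, Fn1 and Vim among the abundant genes; Alpl, Ibsp and Thy1 were not among the genes tested. In this list 7 fell and 0 rose, against 2.27% of all genes called lower. The count lower was 5 with the length trend removed (8 at infinite prior degrees of freedom, with 1 higher in both), 2 with median-of-ratios rescaling (5 at infinite ones), 2 with 10 prior degrees of freedom and 1 without a time term. Over all genes tested, removal of the length trend gave 365 lower (720 at infinite prior degrees of freedom) and 499 higher (1004 at infinite ones). Median-of-ratios rescaling gave 84 lower (459 at infinite ones). With 10 prior degrees of freedom 25 of all genes were called lower, and without a time term 11. Counts from fits on 3 libraries, which leave 1 library in a group, are not given for the marker lists. The summed level of the list was 46260 CPM (24 h) and 45515 CPM (48 h) in the controls, and 33267 CPM and 27074 CPM in the treated libraries. These included Sp7 and Runx2, transcription factor genes of the osteoblast lineage, whose treated levels were 0.365 and 0.788 times control at the earlier time and 0.257 and 0.538 times control at the later. The part of this change in the levels of the 3 genes was not tested. Of the lymphotoxin pathway itself, the treated level of Nfkb2 was 2.24 times control at 24 h and 1.87 times at 48 h. Relb, the gene of another NF-κB subunit, was at 1.55 and 1.58 times control, and Ltbr at 0.971 and 0.866 times control.

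**Figure D5:**
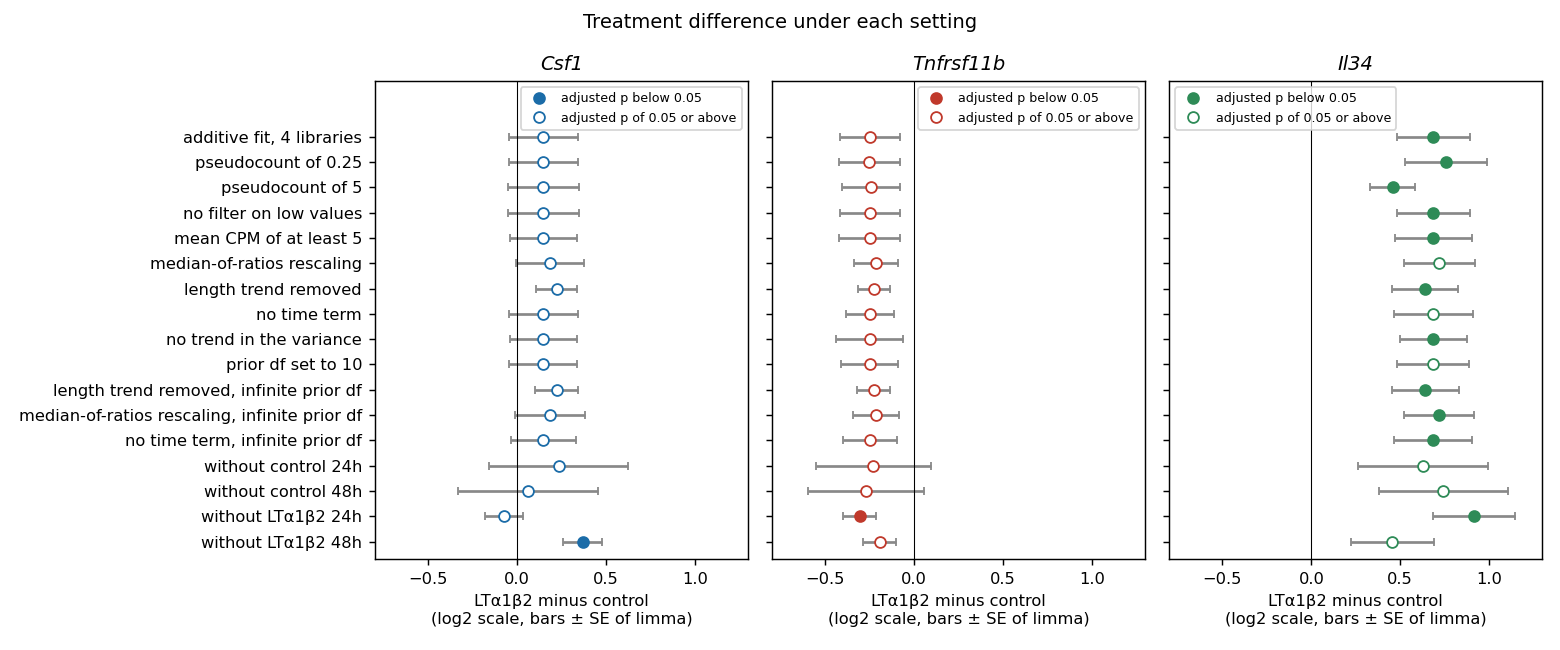
Treatment difference of Csf1, Tnfrsf11b and Il34 on the log2 scale under each setting (rows), with bars of ± 1 SE of limma; filled points have an adjusted p below 0.05. Il34 is above 0 and Tnfrsf11b below 0 in every row, and Csf1 ranges from -0.072 without the treated 24 h library to 0.37 without the treated 48 h library.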

How the data were processed

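Per the labels' protocols, RNA extracted with RNAiso Plus (1 µg) went into a library kit that keeps the strand, and pairs of 150 bp reads came from a NovaSeq. The submitters' processing notes name edgeR 3.30.0. The aligner, counter, build and annotation: not given in the sources used here. The authors deposited CPM for 12208 genes, each column summing to 1000000, and the table holds 0 zeros. Every value was a whole multiple of 1 step per column within 0.01 of a read, the lowest being 9 to 12 reads, so genes low in any library are not analysed here. These reads gave the counting intervals (conditional binomial, Clopper-Pearson, scipy 1.17.1). Symbols (12205 identifiers matched, 11716 of them with version) and lengths were those of GENCODE M21.

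The fit used log2(CPM + 1), on which scale low genes change less than their ratio, for the 12160 genes whose mean CPM was 1 or more. Treatment and time were additive terms. The tool was limma 3.58.1 under R 4.3.3, with a trended prior, two-sided p-values, Benjamini-Hochberg adjustment at 0.05 and 1 residual degree of freedom. "Rose" and "fell" refer to this test unless another fit is named. The script was tested on simulated data. That 1 degree of freedom holds how far the 24 h and 48 h differences of a gene depart from each other. The p-values rest on that departure over genes of like level, not on spread between repeats of a group. Separate cultures are not stated, so technical spread may enter it. The genes and lists were chosen with earlier results of these data known. Named genes were the 3 genes, Nfkb2, Relb and Ltbr, up to 6 genes past the test and the 2 most abundant of each list, and the 4 genes nearest in pattern; marker genes are given by count with examples.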

Additional observations from a re-analysis of the deposited data

How the results depend on the processing

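Libraries were paired by time only: the time term of the additive fit sets each treated library against the control of its time. Each group is 1 library. Il34 kept its direction in all 16 alternatives and its call in 10. It was not called with median-of-ratios rescaling at its own 9.9 prior degrees of freedom (log2 difference 0.72), without a time term at its own 6.3 (0.69) or with 10 prior degrees of freedom (0.69), and leaving out each library gave 0.46 to 0.92. Leaving out each library gave log2 differences from -0.072 (without the treated 24 h library, a reversal) to 0.37 for Csf1 and from -0.31 to -0.19 for Tnfrsf11b; their other alternatives kept direction and call. The Csf1 ratio at 48 h was 1.07 with median-of-ratios rescaling and 1.13 with the length trend removed. The 355 genes called higher and 276 lower became 96 and 84 with median-of-ratios rescaling (809 and 459 at infinite prior degrees of freedom), 20 and 11 without a time term at its own 6.3 prior degrees of freedom (403 and 320 at infinite ones), 39 and 25 with 10 prior degrees of freedom, and 1004 and 720 with the length trend removed at infinite prior degrees of freedom. Leaving out each library gave 16 to 1886 higher and 6 to 3063 lower; the cause was not tested. The settings with infinite prior degrees of freedom were chosen after seeing the data. A planned edgeR test on recovered reads was not run. Il34, at 71 to 121 reads per library, has the fewest reads of the 3 genes.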

Other observations

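Genes outside the naming rule, chosen after their values were seen, gave these values. Tnfsf10, which encodes TRAIL, a ligand that osteoprotegerin can also bind, stood at 17.8 CPM (24 h) and 13.9 CPM (48 h) in the controls and at 24.8 CPM and 21.8 CPM in the treated libraries. Its ratios were 1.39 (95% counting interval 1.19 to 1.63) and 1.57 (1.29 to 1.91), and it missed the threshold (limma adjusted p = 0.0592). Cxcl12, the gene of a stromal chemokine that attracts CXCR4-bearing precursors, stood at 330 CPM and 309 CPM in the controls and at 431 CPM and 387 CPM in the treated libraries (limma adjusted p = 0.288). Kitl, the gene of stem cell factor, stood at 88.7 CPM and 102 CPM in the controls and at 117 CPM and 131 CPM in the treated libraries (limma adjusted p = 0.213). Both treated libraries lay above both controls for each of these genes. With the length trend removed, the limma adjusted p was 0.0186 for Tnfsf10, 0.0061 for Cxcl12 and 0.0050 for Kitl. That fit called 499 of the 12160 genes tested higher. With median-of-ratios rescaling the limma adjusted p was 0.124, 0.186 and 0.139. Trem2, which encodes a receptor of myeloid cells, stood at 3.13 CPM and 2.06 CPM in the controls and at 2.94 CPM and 5.28 CPM in the treated libraries (limma adjusted p = 0.236). Its transcript is short, at 1088 bases, and its 48 h log2 difference was 1.04, or 0.75 with the length trend removed.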
